A study of Bos taurus with 22 samples.

Results

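Expression of 9 genes of the interferon gamma response and of antigen processing was examined in the jejunal mucosa of Holstein steers. The genes were GBP2, SOCS1, IRF1, CIITA, CD74, TAP1, PSMB9, NLRC5 and CXCL10, which were taken by symbol from the 27570 genes of the deposited count table. All 9 were in the table, and all 9 passed the filter on low counts in every comparison. GBP2 and SOCS1 had been picked because their counts in these steers followed a casein × GLP-2 interaction pattern, so all their differences between treatments are given below as a description without a test. The other 7 genes were added as known parts of the same response.

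Interferon gamma is a cytokine of T cells and natural killer cells that binds the IFNGR1 and IFNGR2 receptor chains and signals through the kinases JAK1 and JAK2. The signal raises IRF1 and drives chemokines such as CXCL10, guanylate-binding proteins such as GBP2, and the machinery that cuts proteins and loads their peptides on MHC class I. Through CIITA the cytokine also induces MHC class II and its chaperone CD74, while SOCS1 is induced as a brake on the JAK kinases. In the gut mucosa, epithelial cells, macrophages, dendritic cells and lymphocytes can all express parts of this response, and B cells and dendritic cells hold CIITA and CD74 without the cytokine.

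The 22 steers were 10 to 12 months of age, and all were given raw corn starch into the abomasum over 7 d, at a daily dose of 3.94 g for each kg of body weight. With the starch they received either water or sodium caseinate (daily dose 1.30 g for each kg), and subcutaneous injections supplied either BSA vehicle or GLP-2, a gut hormone, at a daily dose of 100 μg for each kg. This gave 5 control (water, BSA), 5 GLP-2 (water, GLP-2), 6 casein (casein, BSA) and 6 casein + GLP-2 steers, so that 11 steers with GLP-2 were set against 11 with BSA, and 12 steers with casein against 10 with water. No steer was without starch, and no healthy reference outside the infusion was among the samples. Each library was scraped mucosa of 1 steer, which holds epithelium together with immune and other cells. In such bulk tissue, fewer cells of a type and less RNA per cell cannot be told apart.

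Totals of deposited counts ranged from 8809666 to 28447810 per steer, and the 9 genes had between 45 counts (SOCS1) and 252142 counts (CD74) in a library. The labelled tissue was checked against markers. All 14 enterocyte markers had counts in every steer, but their summed level ranged from 3586 to 77405 CPM in BSA steers and from 29362 to 118460 CPM in GLP-2 steers. The 12 B cell markers summed to 129 to 2036 CPM in BSA steers and to 96.4 to 154 CPM in GLP-2 steers. No marker of these lists was at 0 in every steer. Marker levels therefore differed widely within 1 treatment, and they are given where they move with the 9 genes.

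Positions are given on ARS-UCD1.2 as in the deposited table. GBP2 (chr3:54409369-54433538, plus strand) encodes a large GTPase that attacks the vacuoles of intracellular microbes. SOCS1 (chr25:9913007-9913678, minus strand) and CIITA (chr25:9542154-9600304, plus strand) lie on 1 chromosome, 312702 bases apart. TAP1 (chr23:7177583-7186556, minus strand), a subunit of the transporter that carries peptides into the endoplasmic reticulum, and PSMB9 (chr23:7186813-7193342, plus strand), a catalytic subunit of the immunoproteasome, lie head to head in the MHC region with 256 bases between them. IRF1 is at chr7:21938614-21946679 (plus strand), CD74 at chr7:61747923-61755685 (minus strand), NLRC5, the activator of MHC class I genes, at chr18:25044850-25102326 (plus strand), and CXCL10 at chr6:90882124-90884526 (minus strand). GBP2 has close relatives in the genome, and reads shared between such copies could have been split by the counting.

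Levels are compared between genes by FPKM, which is scaled by gene length. CD74 was highest with a median of 4085 FPKM over the 22 steers, and its range overlapped that of no other gene. PSMB9 followed with 443 FPKM. Its lowest value, 241 FPKM, was above every TAP1 value and below the highest of IRF1 (262 FPKM). TAP1 (median 148 FPKM) and IRF1 (median 137 FPKM) were close, with TAP1 above IRF1 in 16 of 22 steers and with overlapping ranges. CXCL10, NLRC5, GBP2, SOCS1 and CIITA had medians of 29.8, 21.4, 15.8, 11.5 and 8.77 FPKM. Each of these 5 overlapped its neighbour in the order, and CXCL10 was above NLRC5 in only 12 of 22 steers, so that their order did not hold from steer to steer.

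SOCS1, the feedback inhibitor, was highest in control steers. Its CPM (counts at a common library size, normalized by TMM) in the 5 control steers were 11.7, 17.5, 14.3, 13.7 and 20.4. In the 5 GLP-2 steers they were 4.78, 5.96, 8.66, 6.21 and 4.73. Every control steer was above every GLP-2 steer. Casein steers ranged from 5.07 to 11.5 CPM (median 7.79) and casein + GLP-2 steers from 5.15 to 11.03 CPM (median 7.12). The control steers also did not overlap the casein steers, whereas casein + GLP-2 overlapped both casein and GLP-2. As fitted log2 fold changes, SOCS1 was at -1.35 in GLP-2 and at -0.96 in casein relative to control, and casein + GLP-2 was at -0.10 relative to casein and at 0.29 relative to GLP-2. Of the 15086 genes of the 4-treatment fit, 1.75% did not overlap between GLP-2 and control and 0.305% did not overlap between casein and control. Within body weight blocks, SOCS1 was lower in 4 of 4 GLP-2 and control pairs and in 5 of 5 casein and control pairs. These treatment differences are those that SOCS1 was chosen by, and nothing is read from them.

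GBP2 showed another arrangement. The 5 control steers had 74.5, 53.9, 33.0, 58.6 and 20.8 CPM. The 5 GLP-2 steers had 29.7, 22.9, 25.8, 18.3 and 19.7 CPM. Of the control steers, 4 were above every GLP-2 steer, and the control steer of block 5 lay among them. Casein steers ranged from 17.9 to 53.9 CPM (median 38.6) and casein + GLP-2 steers from 32.2 to 85.1 CPM (median 63.7). All 6 casein + GLP-2 steers were above all 5 GLP-2 steers, and 0.451% of the 15086 genes separated these treatments in that way in either direction. As fitted log2 fold changes, GBP2 was at -1.05 in GLP-2 and at -0.39 in casein relative to control, and casein + GLP-2 was at 0.77 relative to casein and at 1.43 (2.69-fold) relative to GLP-2. GBP2 was lower in 4 of 4 block pairs of GLP-2 and control, and higher in 5 of 5 block pairs of casein + GLP-2 and GLP-2. As for SOCS1, these differences were the ground of the choice. The SD of GBP2 was 4.61 CPM among GLP-2 steers and 21.3 CPM among control steers.

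CXCL10, a chemokine that attracts T cells through the receptor CXCR3, had 94.2, 51.6, 49.0, 74.4 and 51.0 CPM in control steers. In GLP-2 steers it had 60.8, 25.8, 21.3, 15.6 and 21.3 CPM. The GLP-2 steer of block 1 lay among the control steers, and the other 4 were below all of them. Casein steers ranged from 17.1 to 108 CPM (median 74.5) and casein + GLP-2 steers from 28.0 to 137 CPM (median 53.9), and both overlapped every other treatment. CXCL10 was not picked by its interaction pattern, though the genes were chosen with earlier results of these data known. In edgeR's quasi-likelihood test GLP-2 steers differed from control by a log2 fold change of -1.15 (standard error 0.484, 95% interval -2.15 to -0.14, unadjusted p = 0.0272, adjusted p = 0.30), with a lower value in 4 of 4 block pairs. For casein + GLP-2 against GLP-2 edgeR gave 1.06 (standard error 0.468, unadjusted p = 0.034, adjusted p = 0.995), with a higher value in 5 of 5 block pairs. Neither difference passed the adjusted threshold of 0.05. CXCL10 was higher in 3 of 5 block pairs of casein and control and in 3 of 6 of casein + GLP-2 and casein. The block pairs use the same steers as the tests and are no separate support. The share of all genes with 1 direction in every block pair is not given here. The interaction of CXCL10 in edgeR was 1.05 (95% interval -0.30 to 2.40, adjusted p = 0.996).

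IRF1, a transcription factor induced early by the cytokine, ranged from 197 to 586 CPM in control steers (median 426) and from 316 to 503 CPM in GLP-2 steers (median 411). In casein steers it ranged from 267 to 476 CPM (median 398) and in casein + GLP-2 steers from 422 to 764 CPM (median 520). Control spanned nearly the whole of the other treatments, and all 6 casein + GLP-2 steers were above the medians of GLP-2 and of casein. The highest value, 764 CPM, was in the casein + GLP-2 steer of block 1, which also held the highest TAP1, CXCL10 and GBP2 of all steers. For casein + GLP-2 against casein the log2 fold change of IRF1 was 0.50 (standard error 0.239, unadjusted p = 0.0501, adjusted p = 0.208, edgeR), with a higher value in 5 of 6 block pairs.

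TAP1 followed IRF1. It ranged from 287 to 532 CPM in control (median 456), 360 to 637 CPM in GLP-2 (median 438), 349 to 611 CPM in casein (median 450) and 443 to 693 CPM in casein + GLP-2 steers (median 552). The 4 treatments overlapped, and again all 6 casein + GLP-2 steers were above the GLP-2 median. NLRC5 was at a median of 121 CPM in control, 116 CPM in GLP-2, 125 CPM in casein and 178 CPM in casein + GLP-2 steers. In the last group it fell into 4 steers of 176, 179, 203 and 189 CPM (blocks 1 to 4) and 2 steers of 119 and 103 CPM (blocks 5 and 6), so that a high level was not shared by the whole treatment. PSMB9 varied least over all steers, with a coefficient of variation of 20.6%, and had a median of 351 CPM in control, 363 CPM in GLP-2, 351 CPM in casein and 304 CPM in casein + GLP-2 steers. Its SD was 113 CPM among casein steers and 30.4 CPM among casein + GLP-2 steers.

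CIITA, the master activator of MHC class II genes, had 61.1, 25.7, 78.7, 52.2 and 68.3 CPM in control steers and 41.1, 34.7, 58.7, 46.4 and 20.4 CPM in GLP-2 steers. Casein steers ranged from 26.2 to 82.5 CPM (median 43.0) and casein + GLP-2 steers from 23.5 to 75.3 CPM (median 36.0). Each treatment held both low and high steers. CD74, the invariant chain that occupies the peptide groove of MHC class II, ranged from 4399 to 11043 CPM in control, 3776 to 11201 CPM in GLP-2, 3557 to 9543 CPM in casein and 2974 to 12287 CPM in casein + GLP-2 steers. The ranges of CD74 overlapped widely, and the SD within a treatment exceeded any difference between medians.

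**Figure D1:**
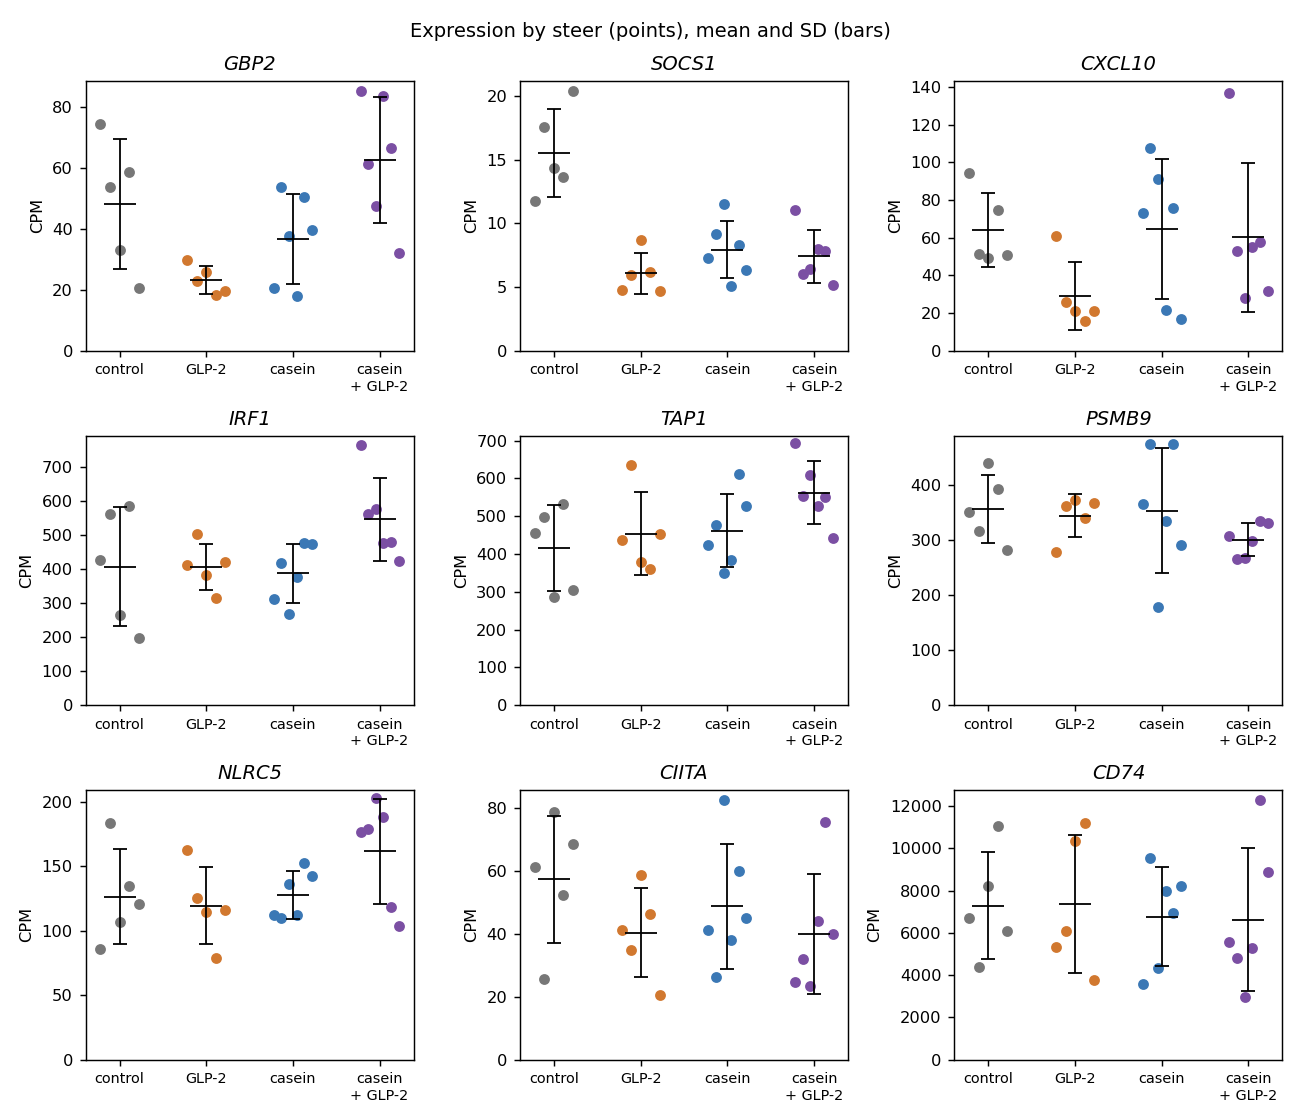
CPM (y axis, from 0) of the 9 genes in every steer by treatment; points are steers (5 control, 5 GLP-2, 6 casein, 6 casein + GLP-2), and black bars are the mean and SD. SOCS1 of the 5 control steers (11.7 to 20.4 CPM) lies above all GLP-2 steers. GBP2 of casein + GLP-2 (32.2 to 85.1 CPM) lies above all GLP-2 steers (18.3 to 29.7 CPM). Both genes were chosen on these steers by their interaction pattern, so nothing is read from these separations. Of all 15086 genes, 1.75% did not overlap between GLP-2 and control, and 0.451% between casein + GLP-2 and GLP-2. The treatments overlap for the other 7 genes.

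The main effect of exogenous GLP-2 administration was then tested in the 7 genes that had not been picked by their interaction pattern. They too were chosen with earlier results of these data known. In edgeR's quasi-likelihood test 0 of 7 passed the adjusted threshold between GLP-2 and BSA, against 13.5% of all 13928 genes tested, and in the DESeq2 Wald test 0 of 7 passed, against 22.4% of all genes. Without adjustment 0 of 7 had p of at most 0.05 in edgeR, where 34.6% of all genes did. Their log2 fold changes were 0.30 for IRF1, 0.23 for TAP1, 0.17 for NLRC5, -0.01 for CD74, -0.14 for PSMB9, -0.40 for CIITA and -0.46 for CXCL10, with adjusted p from 0.207 to 0.976 in edgeR. The median of the 7 genes was -0.01, against 0.01 for all genes tested. The 95% intervals ran from -0.08 to 0.68 for IRF1, from -0.08 to 0.55 for TAP1, from -0.87 to 0.07 for CIITA and from -0.54 to 0.51 for CD74. A change of CD74 by more than about 1.5-fold in either direction is therefore outside its interval, while smaller ones are not.

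SOCS1 had a mean of 6.80 ± 1.91 CPM in GLP-2 steers and 11.4 ± 4.79 CPM in BSA steers (SD, n = 11 each). The fitted log2 fold change was -0.74. The values overlapped, since casein steers, which received BSA, were as low as GLP-2 steers. The choice of SOCS1 rests on the same counts of all 22 steers, so this difference is a description, and nothing is read from it. It was -0.66 with the replicate block and lay between -0.87 and -0.64 when steers were left out singly. GBP2, chosen in the same way, was at 0.10.

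Markers of other cells moved with this comparison. Of 10 B cell markers tested, 9 were lower in GLP-2 steers, against 8.37% of all genes lower (the list had a median of -3.10 on the log2 scale). The log2 fold change of SOCS1 was -0.42 with the B cell score of each steer as a covariate and -0.63 with the enterocyte score, an alternative added once the data were known. In each of these fits 0 genes of the whole table passed in edgeR. Over the 22 steers, with treatment means removed, SOCS1 had a correlation of 0.28 with the B cell score. It was 0.37 within BSA steers and 0.14 within GLP-2 steers. These correlations leave out the differences between treatments, and the part of B cells in the SOCS1 difference was not tested.

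Postruminal casein infusion called 0 of the 7 genes against water, and 0% of the 14096 genes tested passed in edgeR. None of the 7 had an unadjusted p of at most 0.05 either, against 3.36% of all genes, and the DESeq2 Wald test also called 0 of the 7, against 0.0355% of all genes. Log2 fold changes were 0.43 for CXCL10, 0.24 for TAP1, 0.24 for NLRC5, 0.20 for IRF1, -0.11 for PSMB9, -0.14 for CD74 and -0.15 for CIITA. The adjusted p was 0.994 for each in edgeR. Among the 7 genes the interval was widest for CXCL10 (-0.31 to 1.17) and narrowest for PSMB9 (-0.40 to 0.19). GBP2 was at 0.48 and SOCS1 at -0.50, again as a description.

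**Figure D2:**
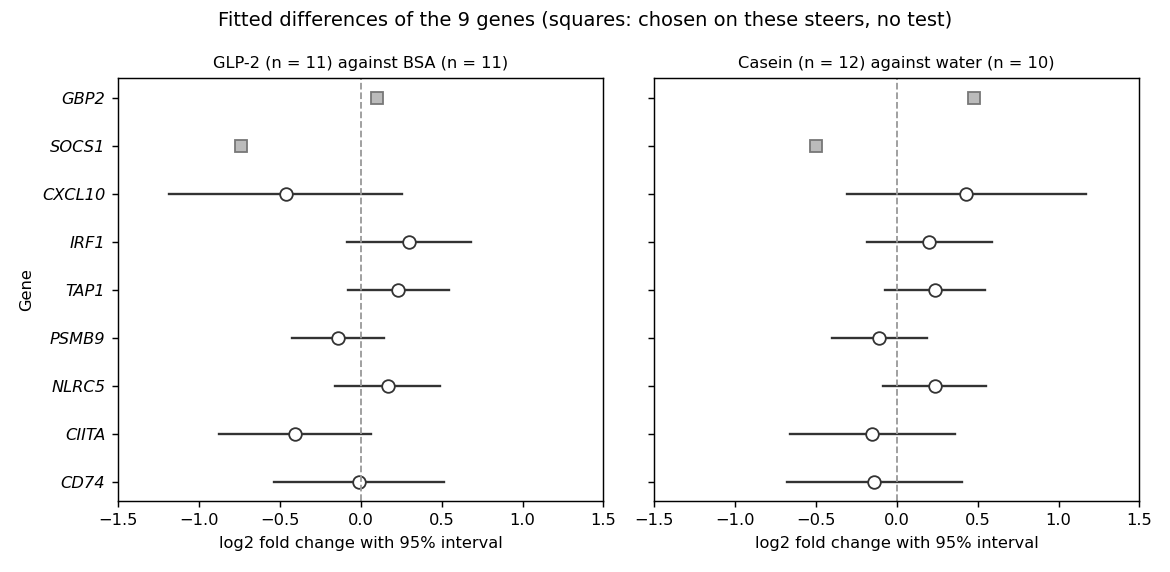
Log2 fold changes (x axis) of the 9 genes (y axis) for GLP-2 against BSA (left, n = 11 each) and casein against water (right, n = 12 and n = 10); circles are the 7 tested genes with 95% intervals from edgeR as lines, and grey squares are GBP2 and SOCS1, which were chosen on these steers and have no test. All intervals drawn include 0, and the squares of SOCS1 lie at -0.74 and -0.50.

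In the 4-treatment model, the 7 genes that were not chosen by their interaction were tested in each contrast, and edgeR called 0 of 7 in all 5 of them, as it called 0% of all genes. DESeq2 also called 0 of 7 in each, where it called 2.04% of all genes for GLP-2 against control, 6.55% for casein + GLP-2 against casein, 0.0663% for casein against control, 0.0332% for casein + GLP-2 against GLP-2 and 0.0133% for the interaction. Without adjustment, 1 of 7 (CXCL10, lower) had p of at most 0.05 in GLP-2 relative to control, where 13.9% of all genes did (8.35% lower), and 1 of 7 (CXCL10, higher) in casein + GLP-2 relative to GLP-2, where 2.64% did (0.848% higher). The count was 0 of 7 for casein + GLP-2 against casein (24.1% of all genes), for casein against control (5.66%) and for the interaction (4.28%). For casein + GLP-2 against GLP-2 the log2 fold changes of the 7 ranged from -0.19 (PSMB9) to 1.06 (CXCL10), with NLRC5 at 0.43 (95% interval -0.01 to 0.88), IRF1 at 0.43, TAP1 at 0.31, CIITA at -0.01 and CD74 at -0.15. For the interaction they were 1.05 for CXCL10, 0.50 for IRF1, 0.42 for NLRC5, 0.22 for CIITA, 0.16 for TAP1, -0.04 for CD74 and -0.18 for PSMB9, with adjusted p of 0.996 or 0.997. The steers of GLP-2 and casein + GLP-2 enter several of these contrasts, so the contrasts do not count as separate evidence.

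Other genes of the pathway were followed through lists of its parts. The cytokine itself, IFNG, was at 4.38 ± 3.55 CPM in control, 1.90 ± 0.549 CPM in GLP-2, 4.05 ± 2.44 CPM in casein (SD, n = 5, 5 and 6) and 4.22 ± 1.39 CPM in casein + GLP-2 steers (SD, n = 6). The lowest value, 0.62 CPM, was in a control steer, and control overlapped all other treatments. The IFNG log2 fold change was -0.41 between GLP-2 and BSA (adjusted p = 0.446, edgeR) and 1.28 for the interaction (standard error 0.712, adjusted p = 0.996, edgeR).

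The counts of called genes in each list are read against the 5.13% of all genes that were higher and the 8.37% that were lower between GLP-2 and BSA. Of 14 genes of the interferon gamma signal other than SOCS1, 1 was lower with GLP-2, near the share of all genes. It was the phosphatase PTPN2, another negative regulator of the JAK kinases (log2 fold change -0.31, adjusted p = 0.0438, edgeR). The receptor chain IFNGR1 was at 0.43 (adjusted p = 0.076). None of the 14 was higher at the threshold, 7 were above 0, and their median was 0.02. Among 22 guanylate-binding proteins and other effectors, 1 was higher and 2 were lower with GLP-2, together near the 13.5% of all genes called. PARP14, an ADP-ribosyltransferase, was higher (0.63, adjusted p = 0.0472), while an APOL3 locus (ENSBTAG00000040244, -0.74, adjusted p = 0.0229) and the adhesion molecule ICAM1 (-0.78, adjusted p = 0.0486) were lower in edgeR. The other APOL3 locus of the list went the opposite way at 0.57 and did not pass (adjusted p = 0.135, edgeR). None of the 4 genes of the CXCR3 axis passed, and all 4 were below 0 with CXCR3 at -0.35, CXCL10 at -0.46 and CXCL9 at -0.44 (adjusted p = 0.152, 0.348 and 0.387, edgeR), against 49.3% of all genes below 0.

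For MHC class I presentation, 1 of 16 genes was higher with GLP-2, the peptidase ERAP1, which trims peptides in the endoplasmic reticulum (0.80, adjusted p = 0.0335, edgeR), where 5.13% of all genes were higher. Its relative ERAP2 was at 0.54 (adjusted p = 0.0685) and the second transporter subunit TAP2 at 0.43 (adjusted p = 0.115). All 16 fitted values were above 0, with a median of 0.29, against 0.01 and 50.7% above 0 for all genes. For MHC class II presentation, 1 of 17 genes was lower, HLA-DOB, a modulator of peptide loading found mainly in B cells (-1.34, adjusted p = 0.0268), where 8.37% of all genes were lower. The cathepsin CTSS was at 0.66 (adjusted p = 0.0857) and BOLA-DQA5 at 2.38 (standard error 1.00, adjusted p = 0.0998), an MHC class II gene whose reads can be shared with related MHC genes. With the replicate block in edgeR, PTPN2, PARP14, the lower APOL3 locus, ICAM1, ERAP1 and HLA-DOB missed the threshold (adjusted p = 0.0879, 0.0512, 0.051, 0.085, 0.0562 and 0.0565).

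The proteasome was examined for its exchange of subunits, since PSMB9, PSMB8 and PSMB10 take the place of PSMB6, PSMB5 and PSMB7 in the immunoproteasome. None of 6 immunoproteasome genes passed between GLP-2 and BSA, with PSMB10 at -0.44, PSMB8 at -0.31 and the assembly factor POMP at -0.23 (adjusted p = 0.0721, 0.10 and 0.217, edgeR). Of 14 constitutive proteasome genes, 1 was lower, where 8.37% of all genes were. It was PSMB5 (-0.40, adjusted p = 0.0457, or 0.0666 with the replicate block, edgeR), while PSMB6 and PSMA6 were both at -0.24 (adjusted p = 0.217 and 0.271). The ratio of PSMB9 to PSMB6 counts, which does not depend on library scaling, was 4.67 ± 0.568 with GLP-2 and 4.29 ± 0.741 with BSA (SD, n = 11 each). The difference was 0.13 on the log2 scale (2-sided permutation test, 100000 resamples, p = 0.177). For PSMB8 to PSMB5 the ratios were 12.6 ± 2.16 and 11.8 ± 2.06 (p = 0.421 by the same permutation test). Neither ratio differed by more than the spread between steers.

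For the interaction, edgeR called 0 genes in each list, and the lists are described by their direction alone. In the fitted interaction, 47.3% of all genes were above 0 and the median was -0.03. Without GBP2 and SOCS1, 14 of 14 genes of the interferon gamma signal (median 0.33) and 17 of 21 effectors (median 0.55) were above 0. All 4 genes of the CXCR3 axis (median 1.02), 11 of 16 of MHC class I presentation (median 0.35) and 13 of 18 of MHC class II presentation (median 0.22) were above 0. Of the 6 immunoproteasome genes, 0 were above 0 (median -0.19). The 24 type I interferon genes, none of which passed between GLP-2 and BSA (IFI6 -0.58, CMPK2 0.84 and IFIT3 -0.36, with adjusted p from 0.119 to 0.196 in edgeR), were all above 0 as well (median 0.87). So were 16 of 17 T cell and NK cell markers (median 0.82) and 12 of 12 B cell markers (median 1.27). Smooth muscle markers went the other way, with 0 of 6 above 0 (median -1.07). For casein + GLP-2 against GLP-2 their median was -1.70, and edgeR called 0 of them. Before adjustment, 3 of the 6 reached the 0.05 level in that contrast in edgeR, against 2.64% of all genes in either direction. Of the remaining lists, 10 of 14 enterocyte (median 0.39), 10 of 13 macrophage and dendritic cell (0.14), 5 of 8 proliferation (0.13) and 2 of 8 plasma cell markers (-0.28) were above 0 for the interaction, as were 4 of 14 constitutive proteasome genes (-0.10). Summed T cell and NK cell markers ranged from 1014.5 to 2893 CPM in control, 1087 to 1560 CPM in GLP-2, 626 to 1887 CPM in casein and 1222 to 2112 CPM in casein + GLP-2 steers. PAX5 (4.05) and FCRLA (3.33) of the B cell list and BOLA-DYB (3.64) of the MHC class II list had not been tested between GLP-2 and BSA. They passed the filter on low counts with the 4 treatments as groups. These lists therefore held 10 and 17 genes in that comparison and 12 and 18 here. Of the 12 B cell markers, 3 were at 0 in some GLP-2 steer, and the part of such low counts was not tested. Genes within a list share the same steers, and the part of the immune cell and smooth muscle markers in these values was not tested.

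Steers of 1 treatment were then compared with each other, by correlating log2 CPM over the 22 steers after the treatment means were removed. These correlations are descriptive and rest on libraries that share their depth and cell mixture with every gene. The 36 pairs of the 9 genes had a median r of 0.14 (-0.55 to 0.90), with 4 pairs above 0.5 and 13 below 0. IRF1 and TAP1 had the highest r, 0.90. GBP2 had an r of 0.64 with IRF1, 0.62 with TAP1 and 0.56 with CXCL10. CIITA and CD74 had an r of 0.46, TAP1 and its neighbour PSMB9 only 0.27, and the lowest values were those of IRF1 with CIITA and of NLRC5 with CD74, -0.55 each. The 9 genes thus did not vary as 1 group among steers.

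**Figure D3:**
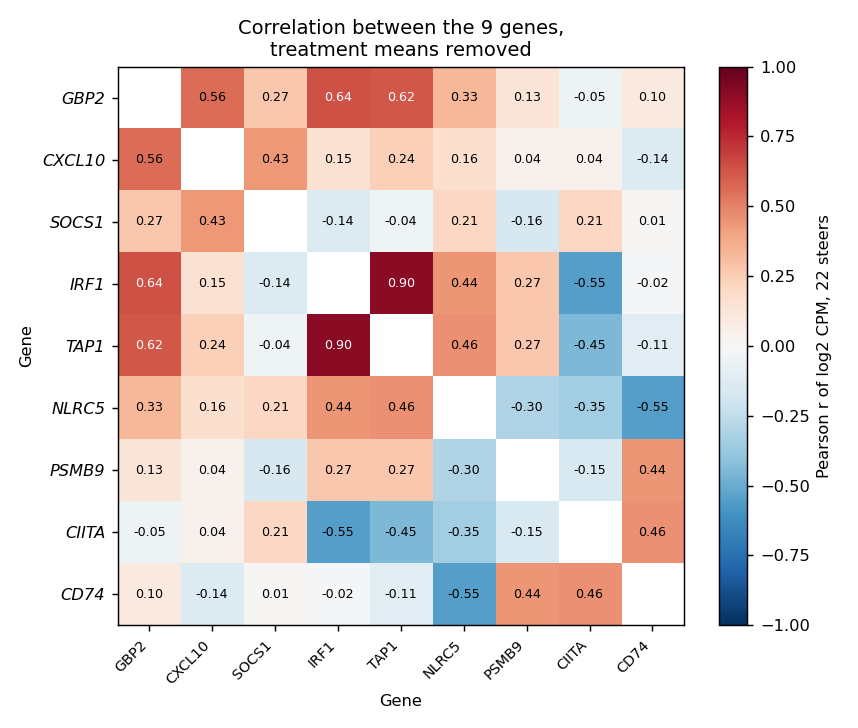
Pearson r of log2 CPM between the 9 genes (both axes) over 22 steers with treatment means removed; red is positive and blue negative. IRF1 and TAP1 stand out at 0.90, GBP2 is linked to IRF1, TAP1 and CXCL10 at 0.56 to 0.64, and CIITA is negative with IRF1 and TAP1.

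The nearest genes among 13245 with a symbol showed what each gene varied with. GBP2 was nearest to WARS (r = 0.84) and IDO1 (r = 0.82), the tryptophanyl-tRNA synthetase and the tryptophan-degrading enzyme that interferon gamma induces, and then to the proteasome subunit PSMA2 (r = 0.78). For IDO1, r was 0.80 within GLP-2 steers and 0.84 within BSA steers, and 0.85 without the 2 steers farthest from the median. IDO1 was at 216 ± 165 CPM in control, 92.1 ± 16.4 CPM in GLP-2, 167 ± 69.1 CPM in casein and 187 ± 64.0 CPM in casein + GLP-2 steers (SD). For casein + GLP-2 against GLP-2 the log2 fold change was 1.02 for IDO1 and 0.77 for WARS (adjusted p = 0.995 for both, edgeR). For the interaction the values were 1.40 and 0.98 (adjusted p = 0.996 for both, edgeR). IDO1 and WARS were named here because they varied with GBP2 in these same steers. GBP2 was chosen by its interaction, so these values are a description and no separate evidence. CXCL10 was nearest to the lipid droplet protein PLIN2 (r = 0.79), to CXCL11 (r = 0.77), the other CXCR3 ligand next to CXCL9, and to MTA3 (r = 0.76).

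IRF1 was nearest to genes of the absorptive epithelium, which were CDH1 (r = 0.95), the cadherin of epithelial junctions, HNF4G (r = 0.94), an enterocyte transcription factor, and PLS1 (r = 0.94), a microvillus actin bundler. TAP1 was nearest to IRF1 (r = 0.90), HNF4G (r = 0.87) and the peptidase DNPEP (r = 0.87). CD74 was nearest to CST3 (r = 0.94), TYROBP (r = 0.94) and FCER1G (r = 0.92), of which the latter pair are signalling adaptors of myeloid cells and NK cells. CIITA was nearest to PTAFR (r = 0.91), BASP1 (r = 0.87) and SLCO2B1 (r = 0.87). PSMB9 went with PSMB8 (r = 0.88) and with SNRPD3 (r = 0.89), of the spliceosome, and ATP5MC1 (r = 0.88), of the ATP synthase. NLRC5 went with NRIP1, FBXO30 and ANKRD28 (r = 0.87, 0.87 and 0.86).

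SOCS1 had the weakest neighbours. They were the mitochondrial hydrolase BPHL (r = 0.73), NOS2 (r = 0.63), the inducible nitric oxide synthase, and TRMT12 (r = 0.63). The r of NOS2 was 0.43 without the 2 farthest steers, and that of TRMT12 was 0.24 within GLP-2 steers and 0.87 within BSA steers. SOCS1 counts were also the lowest of the 9 genes, with 45 to 263 in a library, which limits the precision of each value.

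**Figure D4:**
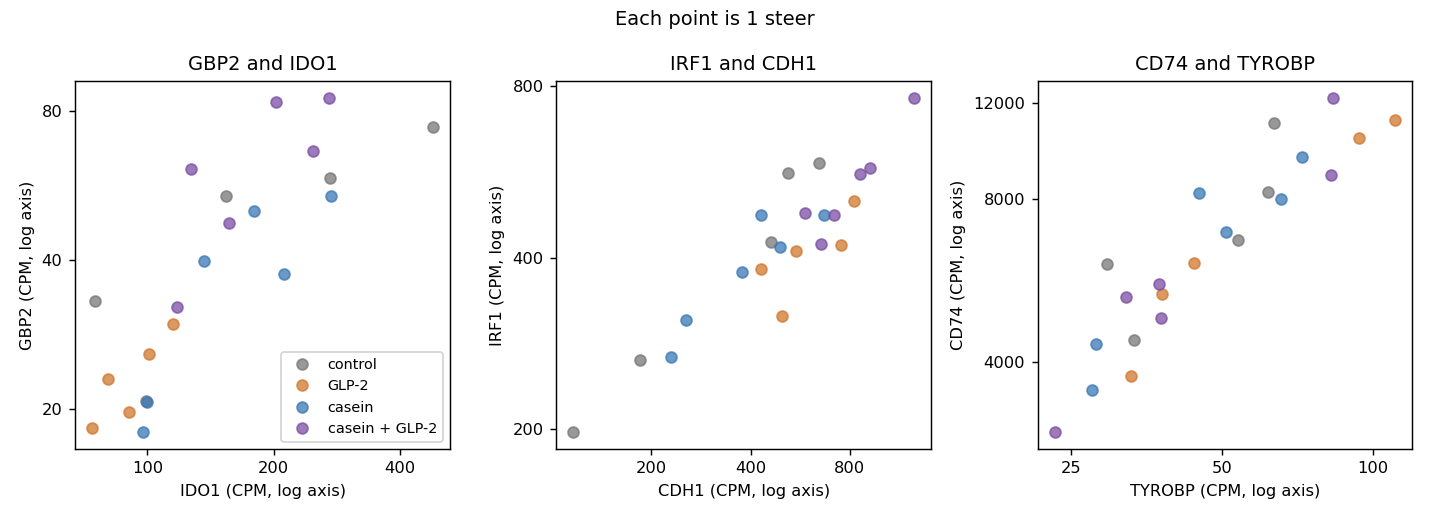
CPM of GBP2, IRF1 and CD74 (y axes) against IDO1, CDH1 and TYROBP (x axes), all on log axes; each point is 1 of 22 steers, coloured by treatment. With treatment means removed, r was 0.82, 0.95 and 0.94, which leaves out offsets between treatments. Mean CDH1 was 385 CPM in control and 610 CPM in GLP-2 steers, with mean IRF1 at 407 CPM in both.

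Scores of cell markers, the mean log2 CPM of a list in each steer, separated the genes further. IRF1 and TAP1 had an r of 0.88 and 0.73 with the enterocyte score, and -0.71 and -0.58 with the B cell score. CIITA had an r of 0.74 with the B cell score, 0.54 with the macrophage and dendritic cell score and -0.56 with the enterocyte score. For CD74, r was 0.86 with the macrophage and dendritic cell score, but 0.07 with the B cell score over all steers, where it was 0.85 within GLP-2 steers and -0.18 within BSA steers. With the T cell and NK cell score, r was 0.67 for IRF1, 0.50 for GBP2 and 0.45 for TAP1. Without the 2 farthest steers these values were 0.54, 0.21 and 0.37. SOCS1 and CXCL10 had no r above 0.53 in size with a cell marker score.

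Enterocyte markers also moved with the injection. All 14 were above 0 between GLP-2 and BSA (median log2 fold change 0.87), and 3 of 14 passed, which were CDH1 (0.90), LCT (1.87) and EPCAM (0.68) (adjusted p = 0.0307, 0.0407 and 0.047, edgeR), against 5.13% of all genes higher. With the enterocyte score as a covariate, the log2 fold change between GLP-2 and BSA was -0.16 for IRF1 and -0.08 for TAP1. Among the other lists, 5 of 8 proliferation markers were lower (MCM2 -1.42, AURKB -1.29, PCNA -1.04), as were 2 of 8 plasma cell markers (DERL3 -1.78, TNFRSF17 -2.28) and 1 of 17 T cell and NK cell markers (CD5 -0.58), against 8.37% of all genes, so that the last count was no more than the share of all genes. With the replicate block in edgeR, LCT, EPCAM, MCM2, AURKB and PCNA missed the threshold (adjusted p from 0.0543 to 0.0637), whereas CDH1, DERL3, TNFRSF17 and CD5 passed it (0.0482 to 0.0493). Of 13 macrophage and dendritic cell markers, 1 was higher, near the 5.13% of all genes. It was MRC1 (0.85, adjusted p = 0.042, or 0.0509 with the replicate block, edgeR). CD14 went the other way without passing (-0.98, adjusted p = 0.0586, edgeR), and 9 of the 13 were above 0 and 4 below 0. In edgeR 0 of 6 smooth muscle markers passed, though all 6 were below 0 (median -1.21). Of these 6, 2 had an unadjusted p of at most 0.05, near the 34.6% of all genes.

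Gene length was checked because RNA integrity can change the balance of long and short genes. The mean log2 CPM of genes of at least 3570 bases minus that of genes of at most 1515 bases ranged from 0.84 to 1.48 in control, 1.13 to 1.63 in GLP-2, 1.10 to 1.61 in casein and 1.29 to 1.54 in casein + GLP-2 steers. The r with this difference was 0.56 for NLRC5, whose model of 5846 bases is the longest of the 9 genes, and -0.62 for PSMB9 (745 bases) and -0.55 for CD74 (1565 bases). For SOCS1, which at 672 bases is the shortest, r was 0.10 over all steers, but -0.68 within GLP-2 steers and 0.67 within BSA steers. Among the scores of the lists, r with this difference was -0.78 for the immunoproteasome and -0.83 for the constitutive proteasome. For the other lists it lay between -0.46 (MHC class II presentation) and 0.36 (smooth muscle markers). The part of this balance in the steer-to-steer differences of NLRC5, PSMB9, CD74 and SOCS1 was not tested. Its part in the fitted values of the proteasome lists was not tested either.

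**Figure D5:**
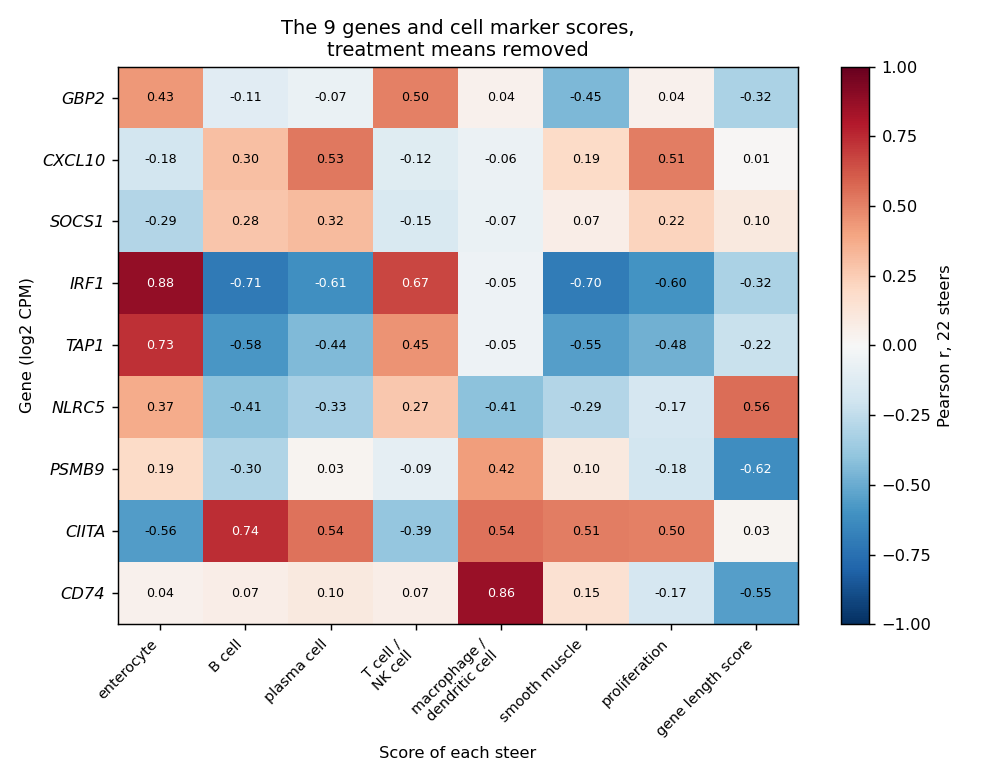
Pearson r between log2 CPM of the 9 genes (y axis) and the marker score or gene length score of each steer (x axis), over 22 steers with treatment means removed. IRF1 (0.88) and TAP1 (0.73) go with enterocyte markers, CIITA (0.74) with B cell markers and CD74 (0.86) with macrophage and dendritic cell markers, whereas SOCS1 has no r above 0.32 in size.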

How the data were processed

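The authors filtered paired-end, strand-specific reads with fastp, aligned them to ARS-UCD1.2 with HISAT2 2.0.5, assembled them with StringTie 1.3.3b and counted them per gene with featureCounts 1.5.0-p3. Whether the counting used strand is not given in the sources used here. The deposited counts are raw whole numbers. FPKM values, which the authors had scaled by gene length and library size, served for levels between genes and as an alternative. The authors tested differences with DESeq2 1.20. RNA of 1 control steer was not sequenced because of low integrity, and a GLP-2 steer was not analysed here.

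In R 4.3.3, edgeR 4.0.16 kept genes by filterByExpr (minimum count 10), normalized by TMM and ran quasi-likelihood tests on the whole table, with Benjamini-Hochberg adjustment over all genes and a threshold of 0.05. The 2 main effects (GLP-2 versus BSA, casein versus water) pooled the steers over the other factor without a covariate, and a model of the 4 treatments gave pairwise contrasts and the interaction. Log2 CPM used a prior count of 2. Alternatives were other normalizations and filters, the DESeq2 1.42.0 Wald test, limma 3.58.1 on log2(FPKM + 1) and log2(FPKM + 0.1), a robust spread, covariates, the replicate block and leaving out each steer. The procedure was tested on simulated data.

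The labelled replicate numbers are blocks of body weight within which treatments were assigned. With treatment means removed, the mean correlation was 0.0331 over 30 pairs of steers of the same block and -0.00641 over 151 other pairs. Replicates are separate steers.

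Named genes are the 9 genes, up to 3 genes with the smallest p between GLP-2 and BSA in each list, IFNG, CXCL9, PSMB8 and PSMB6, and the 3 nearest genes to each of the 9. The genes and lists were chosen with earlier results of these data known. The main effects had been planned as tests of all 9 genes, but GBP2 and SOCS1, chosen on these steers, are described without a test. The result of 1 gene fixed for naming is not reported here, and it was left out of the lists. Sequences were not used here.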

Additional observations from a re-analysis of the deposited data

How the results depend on the processing

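SOCS1 and GBP2 were chosen on these steers and have no test here, and refits of the same steers cannot remove that choice. Between GLP-2 and BSA, the log2 fold change of SOCS1 was -0.74 without the filter on low counts. It was -0.66 with the replicate block and -0.66 with casein as a covariate. With the B cell score as a covariate it was -0.42, and with the enterocyte score (added once the data were known) -0.63. With either score 0 genes of the whole table passed. When steers were left out singly, the log2 fold change of SOCS1 lay between -0.87 and -0.64 over 22 fits. These values of SOCS1 are a description, and nothing is read from them. Of the 7 tested genes, 0 passed in each comparison under each alternative run, DESeq2 included. The replicate block changed no call among these 7 genes.

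Changes of direction concerned log2 fold changes that had not passed or that a covariate took over. With the B cell score, values between GLP-2 and BSA became -0.05 (IRF1), 0.26 (CIITA), 0.06 (CD74), -0.02 (TAP1), -0.01 (NLRC5), 0.19 (ICAM1), 0.20 (CXCL9), 0.39 (CD14), 0.43 (IRF4), 0.06 (MCM2), 0.08 (PCNA), 0.25 (ACTG2) and 0.12 (CNN1), and CIITA became 0.04 for casein against water and -0.38 for the interaction. With the enterocyte score they became -0.29 (GBP2), -0.16 (IRF1), 0.01 (CIITA), -0.08 (TAP1), -0.02 (NLRC5), -0.06 (TAP2), -0.16 (CMPK2), 0.00 (TNFRSF17), 0.17 (IRF4), 0.15 (DES), 0.68 (ACTG2) and 0.51 (CNN1). GBP2 was -0.04 with casein as a covariate. With the replicate block CIITA was 0.12 for casein + GLP-2 against GLP-2 and CD74 0.03 for the interaction, which was 0.00 without the filter. Leaving out 1 steer gave, for GLP-2 against BSA, -0.07 to 0.22 for GBP2 and -0.12 to 0.07 for CD74. For casein + GLP-2 against GLP-2 it gave -0.28 to 0.16 for CIITA and -0.40 to 0.06 for CD74, and for the interaction -0.02 to 0.46 and -0.26 to 0.20. The cause of these changes was not tested.

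Between GLP-2 and BSA, 715 genes were higher and 1166 lower in edgeR, whereas limma on log2(FPKM + 1) gave 1210 and 882, and the replicate block gave 351 and 338. Intervals of the 4-treatment contrasts are wide with 5 or 6 steers a group, and SOCS1 rests on the lowest counts.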
